A study of Mus musculus with 12 samples.

Results

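The 9 genes described here serve as markers of the pyramidal neurons of hippocampal fields CA1, CA2 and CA3. Whether the genes are limited to those neurons in this tissue was not tested. The genes were followed in the ventral hippocampus (vHPC) of male mice given corticosterone (CORT). They were taken by symbol from the authors' tables, which hold 17564 genes, and all 9 were present in both tables. Wfs1 and Fibcd1 stand for CA1, Rgs14, Amigo2, Pcp4 and Map3k15 for CA2, and Bok, Iyd and Dkk3 for CA3. The rule finds them by name, and no measured value is part of it, although they were proposed with earlier results of these data in view.

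All mice were males, and the labels give every library the background C57BL/6, while the methods of the study name the WT mice C57/BL6J. Wild-type (WT) animals and heterozygous knock-in animals that carry the Met form of brain-derived neurotrophic factor on 1 of their 2 alleles, in every cell (BDNF het-Met), drank either CORT, the principal stress steroid of the mouse adrenal, at 25 mg/l in 1% ethanol or the vehicle (VEH), 1% ethanol alone, for 6 weeks from 2 months of age. Both treatments in both genotypes made 4 groups, each with 3 libraries, and each library held RNA pooled from 2 animals, so that the spread between single animals was not measured. The tissue of an animal was the ventral part of the hippocampus of 1 side, left and right being mixed at random, and the mice had been through behavioral tests during treatment. The values are those of the authors' joint fit, with no value for a single library, so the number of reads counted per library is unknown, no group level can be given, and each error below is the standard error (SE) of that fit.

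Pyramidal neurons are the glutamatergic principal cells of the hippocampus. Granule cells of the dentate gyrus send mossy fibers to CA3, CA3 cells send the Schaffer collaterals to CA1, and CA1 is the main output, to the subiculum and cortex. CA2 lies between CA3 and CA1, receives little mossy fiber input of the usual kind and is known for social memory and for synapses that resist potentiation. Hippocampal neurons carry both corticosteroid receptors, and in rodents long exposure to CORT is known for shrinking the apical dendrites of CA3 pyramidal cells.

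The 9 genes covered most of the range of expression in the tissue. Per kilobase of exon, the authors' mean over libraries was highest for Dkk3, at 6.82 log2 CPM per kb, above 98.5% of all genes. Fibcd1 (5.46), Pcp4 (4.799), Wfs1 (4.55), Bok (4.36) and Rgs14 (4.25) followed on the same scale, and the lowest of these, Rgs14, stood above 85.6% of genes. Amigo2 stood at 3.29, Iyd at 0.60 and Map3k15 at -0.99 log2 CPM per kb, the last above 14.0% of genes. A spread over libraries is not given for these levels, so neighbours in this order cannot be said to differ. Reads assigned to each of the 9 genes were therefore found in the tissue, with Map3k15 and Iyd near the lower end. In bulk tissue fewer cells of a type and less RNA per cell cannot be told apart, so each value below is the amount of a transcript in the tissue as a whole.

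The 9 genes had no common direction under CORT. No member reached the call rule of the study, an uncorrected p below 0.05 with a fold change above 1.3, in either genotype, where 1.25% of all genes were called in WT mice against 3.24% in BDNF het-Met mice. Without the fold minimum, 0 of 9 were below an uncorrected p of 0.05 in WT mice (3.83% of all genes). In BDNF het-Met mice 3 of 9 were (13.2% of all genes), Fibcd1 and Bok higher and Pcp4 lower under CORT. None passed an adjusted p of 0.05 by limma in either genotype, and neither did any other of the 17564 genes. The smallest adjusted p of a member was 0.330, that of Pcp4 in BDNF het-Met mice, where the smallest of all genes was 0.143. In WT mice the adjusted p of every member was 0.999 or more, as it was for all genes. A p given below without the word adjusted is the uncorrected, two-sided p of the limma fit. The median log2 fold change of the 9 genes, CORT minus VEH, was -0.07 in WT mice, with 3 of 9 above 0, and 0.01 in BDNF het-Met mice, with 5 of 9 above 0. The medians over all genes were -0.003 and -0.006. The sign was the same in both genotypes for 7 of the 9 genes (77.8%), against 62.5% of all genes.

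**Figure D1:**
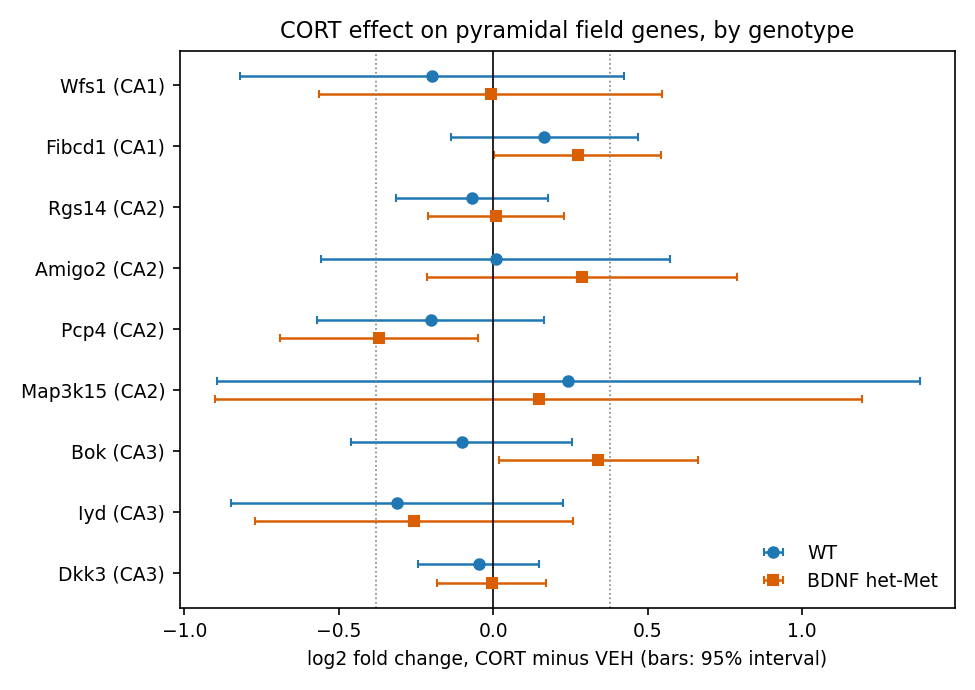
CORT effect on each of the 9 genes in WT (circles) and BDNF het-Met mice (squares), as the log2 fold change CORT minus VEH with its 95% interval from the authors' fit; dotted lines mark a fold change of 1.3. All 9 WT intervals cross 0, and in BDNF het-Met mice only those of Fibcd1, Bok and Pcp4 do not, each with a fold change inside 1.3.

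Promoter sequences are shown for the 3 genes with an uncorrected p below 0.05 in BDNF het-Met mice, since the glucocorticoid receptor can act by binding DNA near its target genes. Each sequence is the 250 bases before the RefSeq start of the gene on GRCm38, read 5′ to 3′ on the gene's strand, at chr16:96467356-96467605 (plus strand) for Pcp4, chr1:93685325-93685574 (plus strand) for Bok and chr2:31846006-31846255 (minus strand) for Fibcd1. Capitals mark the 6-base receptor motif TGTTCT or its reverse complement AGAACA, searched on both strands.
Pcp4: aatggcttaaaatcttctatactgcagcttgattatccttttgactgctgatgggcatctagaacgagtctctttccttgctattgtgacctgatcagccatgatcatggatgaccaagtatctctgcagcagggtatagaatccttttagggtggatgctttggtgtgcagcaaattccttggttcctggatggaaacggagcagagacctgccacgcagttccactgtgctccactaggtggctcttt
Bok: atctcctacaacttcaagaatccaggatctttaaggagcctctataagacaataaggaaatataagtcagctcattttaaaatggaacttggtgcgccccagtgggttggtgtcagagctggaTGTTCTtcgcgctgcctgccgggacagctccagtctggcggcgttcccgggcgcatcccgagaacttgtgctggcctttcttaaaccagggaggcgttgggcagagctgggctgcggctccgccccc
Fibcd1: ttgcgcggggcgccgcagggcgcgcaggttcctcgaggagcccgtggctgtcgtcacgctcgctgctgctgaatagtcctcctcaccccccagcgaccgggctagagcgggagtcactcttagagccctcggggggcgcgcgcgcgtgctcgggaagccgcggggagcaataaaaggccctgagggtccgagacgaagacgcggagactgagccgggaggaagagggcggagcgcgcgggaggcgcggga

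RefSeq promoters were found for 6 of the 9 genes (Wfs1, Fibcd1, Bok, Iyd, Amigo2 and Pcp4). The 6-base motif stood in 16.1% of all 32851 promoter windows of this length, and among the 6 genes it stood in that of Bok alone, with its first base 127 bases before the start. AGAACA followed by TGTTCT with 3 bases between them, the full element, stood in 3 of all windows and in none of the 6. The windows differed in composition. That of Pcp4 had a GC content of 46.8% and 3 CpG dinucleotides, below the medians of all windows, 52.4% and 6. Those of Bok (55.2% and 12) and Fibcd1 (71.6% and 34) lay above them, and the CA2 gene Amigo2 had the most GC-rich window of the 6, with 84.0% and 38. These letters are a description of the window and say nothing of receptor binding, which was not measured.

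In CA1 the values of the pair of genes differed in sign. Fibcd1 (mouse build GRCm38, chromosome 2, 31813290 to 31846005, minus strand, protein coding) encodes a transmembrane receptor that binds acetylated sugars. As the authors fitted it, its log2 fold change under CORT was 0.16 with an SE of 0.14 in WT mice (p of 0.256 by limma) and 0.27 with an SE of 0.12 in BDNF het-Met mice. The latter is a level 20.9% above VEH, with a limma p of 0.0484 uncorrected and 0.376 adjusted. Averaged over both genotypes the log2 fold change was 0.22 with an SE of 0.09 (uncorrected p of 0.0370, adjusted p of 0.347, from the limma standard errors). With the gene's ordinary SE, which uses its own residual spread alone, the p in BDNF het-Met mice was 0.109. Both estimates for Fibcd1 thus lay above 0, and neither passed the adjustment.

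Wfs1 (chromosome 5, 36966104 to 36989205, minus strand, protein coding) encodes wolframin, a membrane protein of the endoplasmic reticulum and a standard label of CA1 pyramidal cells. The log2 fold change of the authors' fit was -0.20 with an SE of 0.28 in WT mice (p of 0.498 by limma) and -0.01 with an SE of 0.25 in BDNF het-Met mice (p of 0.974). The SE of Wfs1 was wide for so strongly expressed a gene, and the 95% interval ran from -0.82 to 0.42 in WT mice and from -0.56 to 0.55 in BDNF het-Met mice. A fold change of 1.5 would not have reached an uncorrected p of 0.05 for Wfs1 in WT mice, where the smallest that would is 1.54.

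Among the 4 CA2 genes Pcp4 alone had an uncorrected p below 0.05 in either genotype. Pcp4 (chromosome 16, 96467606 to 96525793, plus strand, protein coding) encodes a small protein that binds calmodulin and speeds its exchange of calcium. The log2 fold change of the authors' fit was -0.20 with an SE of 0.17 in WT mice (p of 0.2504 by limma) and -0.37 with an SE of 0.15 in BDNF het-Met mice, a change of -22.6% from VEH. The value in BDNF het-Met mice had a limma p of 0.0279 uncorrected and 0.330 adjusted, and it fell just inside the fold change of 1.3 of the call rule. Averaged over genotypes Pcp4 stood at -0.29 with an SE of 0.11 (uncorrected p of 0.0256, adjusted p of 0.310, from the limma standard errors), the smallest p of the 9 genes. With the ordinary SE its p in BDNF het-Met mice was 0.0734. Pcp4 shares 243 exon bases with Igsf5, a gene on the same strand that is not listed in the tables, and 245 bases of their transcripts are identical, so reads from this stretch cannot be given to 1 of the 2 genes.

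The other CA2 genes had intervals around 0. Rgs14 (chromosome 13, 55369732 to 55384687, plus strand, protein coding) encodes a regulator of G protein signaling that restrains potentiation in CA2 neurons. The log2 fold change of the authors' fit was -0.07 with an SE of 0.11 in WT mice against 0.01 with an SE of 0.10 in BDNF het-Met mice, and the 95% intervals (-0.31 to 0.18 and -0.21 to 0.23) stayed within a fold change of 1.3 either way. The sign in BDNF het-Met mice depended on scaling, since it was -0.025 once fold changes were centred on genes of like expression. Amigo2 (chromosome 15, 97244125 to 97247287, minus strand, protein coding), which encodes a cell adhesion protein with leucine-rich repeats, stood at 0.01 with an SE of 0.26 in WT mice and at 0.29 with an SE of 0.23 in BDNF het-Met mice (p of 0.234 by limma). Amigo2 had a point estimate in BDNF het-Met mice as large as that of Fibcd1, with a wider SE, and its interval there ran from -0.21 to 0.79.

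Map3k15 (chromosome X, 159988433 to 160123351, plus strand, protein coding), a kinase at the head of mitogen-activated protein kinase cascades, had the lowest expression and the widest SE of the 9 genes. The log2 fold change of the authors' fit was 0.24 with an SE of 0.52 in WT mice against 0.15 with an SE of 0.48 in BDNF het-Met mice. An absolute log2 fold change of 1.14 in WT mice against 1.05 in BDNF het-Met mice would have been needed for an uncorrected p of 0.05. Map3k15 also shares 603 exon bases with Pdha1, a strongly expressed gene on the opposite strand (mean 7.62 log2 CPM against 1.13 for Map3k15 in the authors' tables). Whether the counting used strand is not given in the sources used here, so reads of Pdha1 may stand among those of Map3k15, and Pdha1 itself had a log2 fold change of 0.04 with an SE of 0.05 in WT mice. For Amigo2 the overlap was small, 58 exon bases with Pced1b on the opposite strand.

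In CA3 the 3 genes were all below 0 in WT mice, each with an interval that included 0. In BDNF het-Met mice they had no common direction, with 1 higher and 2 lower. Bok gave the largest difference between genotypes of the 9. Bok (chromosome 1, 93685660 to 93695764, plus strand, protein coding) encodes a member of the BCL-2 family with a part in cell death at the mitochondrion and the endoplasmic reticulum. The log2 fold change of the authors' fit was -0.10 with an SE of 0.16 in WT mice (p of 0.543 by limma) and 0.34 with an SE of 0.15 in BDNF het-Met mice. The latter is a level 26.6% above VEH, with a limma p of 0.0403 uncorrected and 0.360 adjusted, and a p of 0.0959 with the ordinary SE. The average over genotypes was 0.12 with an SE of 0.11 and a 95% interval from -0.12 to 0.36. Bok and Pcp4 thus both stood at a p below 0.05 in BDNF het-Met mice, with opposite signs.

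Iyd (chromosome 10, 3540240 to 3554877, plus strand, protein coding) encodes iodotyrosine deiodinase, an enzyme that recovers iodide and is best known from the thyroid. In the authors' fit its log2 fold change was below 0 in both genotypes, -0.31 with an SE of 0.24 in WT mice against -0.26 with an SE of 0.23 in BDNF het-Met mice, and the average of -0.28 had an uncorrected p of 0.121 from the limma standard errors. Dkk3 (chromosome 7, 112116017 to 112159057, minus strand, protein coding) encodes a secreted glycoprotein of the Dickkopf family. Dkk3 was the most precise of the 9 genes, at -0.05 with an SE of 0.09 in WT mice against -0.01 with an SE of 0.08 in BDNF het-Met mice. Its 95% intervals, -0.24 to 0.15 and -0.18 to 0.17, excluded a fold change of 1.3 in either direction. Of the 9 genes, Rgs14 and Dkk3 were those for which both intervals excluded it.

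Whether CORT acted differently on a field gene in the 2 genotypes was tested on the log2 fold change in BDNF het-Met mice minus that in WT mice. No member had an uncorrected p below 0.05 for this difference (2.41% of all genes had). Every adjusted p was 0.9999, which was also the smallest of all genes. Bok came nearest, with a difference of 0.44, an SE of 0.22 and a 95% interval from -0.04 to 0.92 (uncorrected p of 0.0683 from the limma standard errors). Fibcd1 differed by 0.11 (interval -0.30 to 0.51, p of 0.568 from the limma standard errors) and Pcp4 by -0.17 (interval -0.66 to 0.32, p of 0.466 from the limma standard errors). A p below 0.05 in BDNF het-Met mice alone therefore does not show that these genes respond in BDNF het-Met mice and not in WT mice. The remaining differences lay between -0.10 and 0.28, and the narrowest interval, that of Dkk3, ran from -0.22 to 0.31.

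For the CORT effect averaged over both genotypes, 2 of the 9 genes had an uncorrected p below 0.05 (13.3% of all genes), Fibcd1 higher and Pcp4 lower. None of the 9 was among the 13 genes (0.0740% of all genes) that passed an adjusted p of 0.05 for this average. The joint F test of the authors' fit over 3 contrasts gave no member a p below 0.05, the smallest being that of Pcp4 (p of 0.0973 by limma). What is left of that F after both CORT contrasts, a statistic without direction for the contrast between genotypes, was highest among the 9 for Iyd (4.63, above 96.1% of all genes) and next for Dkk3 (2.56, above 88.8%). This remainder is only approximate, since it fell below 0 for 610 genes, among them Amigo2 (-0.003).

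**Figure D2:**
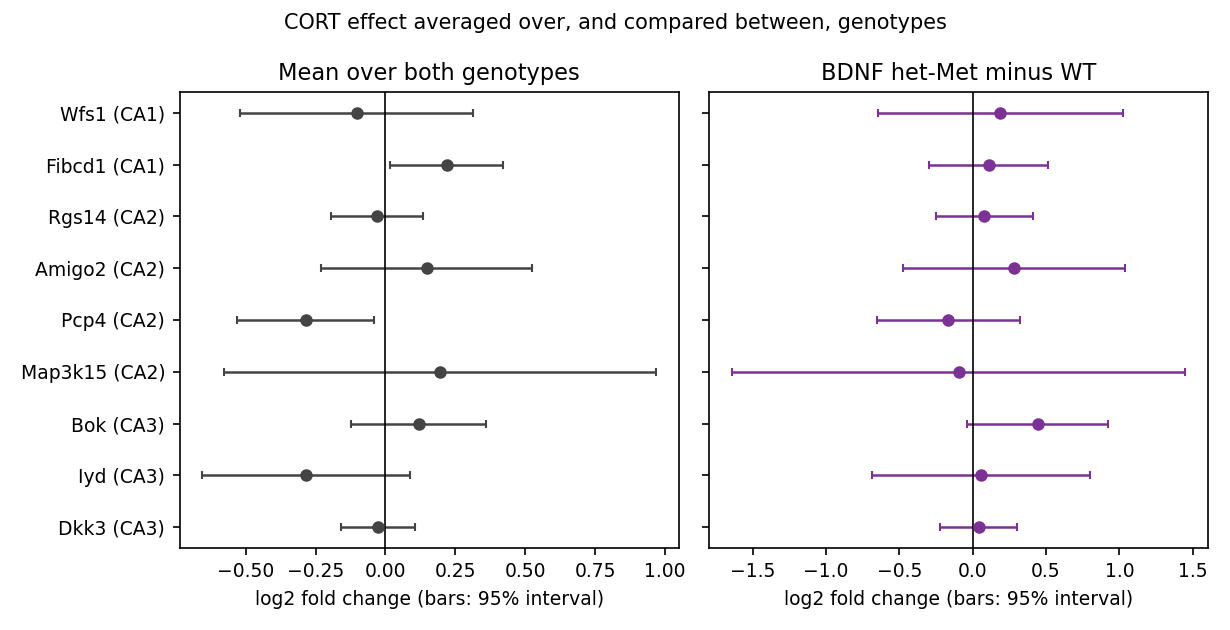
Left, the CORT log2 fold change averaged over both genotypes, and right, the difference of the log2 fold change between genotypes (BDNF het-Met minus WT), with 95% intervals from the limma standard errors, for each of the 9 genes. Fibcd1 and Pcp4 have averages whose intervals leave out 0, on opposite sides, and all 9 intervals of the difference include 0.

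The spread of the genes is no part of the rule that names them, although they were proposed with earlier results of these data in view. The SE of the CORT effect was compared with the median SE of all genes within 0.5 log2 CPM of the same expression. All 9 genes lay above that median in both genotypes, by 1.28 to 4.77 times in WT mice and by 1.40 to 4.79 times in BDNF het-Met mice, with a median of 2.41 and 2.42. Both SEs of a gene come from the same joint fit with a shared residual spread, so the genotypes are not separate observations of it. Wfs1 had the widest SE for its expression, 4.79 times the median in BDNF het-Met mice and above 99.7% of 1908 genes of like expression. Amigo2 followed at 3.67 times, Map3k15 at 2.72, Bok at 2.46, Fibcd1 at 2.42 and Pcp4 at 2.31 times in BDNF het-Met mice. Iyd, with 1.40 times, and Dkk3, with 1.49 times, were nearest to other genes of their expression. Libraries of the same group thus differed more in these transcripts than in most others of like expression, and the share of each field in the dissected pieces was not measured.

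**Figure D3:**
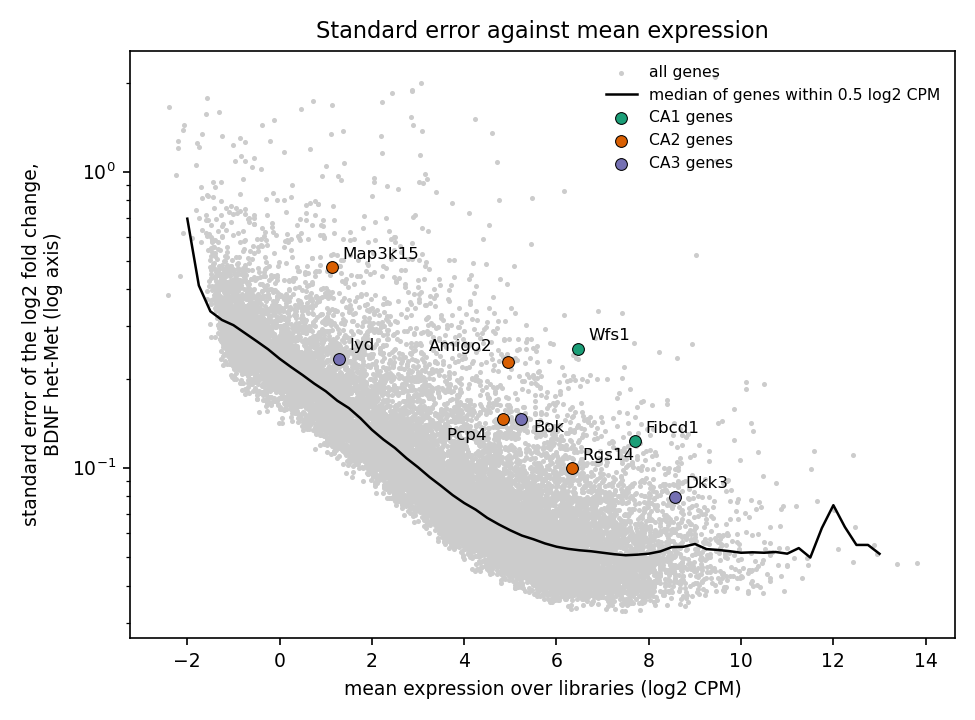
SE of the CORT log2 fold change in BDNF het-Met mice (log axis) against the authors' mean expression over libraries (log2 CPM) for all 17564 genes (grey), with the 9 genes colored by field and a line for the median SE of genes within 0.5 log2 CPM. Every one of the 9 lies above the line, from 1.40 times (Iyd) to 4.79 times (Wfs1).

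The same was seen in other genes of the fields, from lists written with earlier results of these data known. All 17 further field genes in the tables (5 of CA1, 7 of 8 listed for CA2 and 5 of CA3) had an SE above the median of genes of like expression, by a median of 1.97 times in both genotypes. For 6 genes listed for pyramidal neurons in general (Neurod6, Neurod2, Slc17a7, Camk2a, Emx1 and Nrgn) the median was 1.07 times, and 4 of 6 lay above. Whether these genes are limited to pyramidal neurons in this tissue was not tested. Dentate granule cell genes stood at a median of 2.73 times, ventral pole genes at 1.83, subiculum genes at 3.68, interneuron genes at 1.22 and choroid plexus genes at 16.1 times in BDNF het-Met mice. A wide SE was not particular to the field lists, since the same median was 3.75 times for oligodendrocyte, 4.29 for blood, 2.24 for microglia, 2.13 for striatum, 1.61 for astrocyte and 1.38 for thalamus genes.

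The lists of further field genes also had medians of the CORT effect near 0. By the call rule of the study, 1 of the 17 genes was called in WT mice, Spink8 (1.25% of all genes were). In BDNF het-Met mice 2 of the 17 were called, the CA1 gene Spink8 and the CA3 gene Coch (3.24% of all genes were). Spink8, a Kazal-type serine protease inhibitor expressed in CA1 pyramidal cells and a gene the study itself singles out from data that include these libraries, was higher under CORT by a log2 fold change of 0.58 with an SE of 0.14 in WT mice against 0.74 with an SE of 0.13 in BDNF het-Met mice. Its average over genotypes, 0.66 with an SE of 0.10, had an adjusted p of 0.0431 from the limma standard errors, and it was 1 of the 13 genes to pass. The other 4 further CA1 genes did not reach an uncorrected p of 0.05 in either genotype or for the average. The median of the further CA1 list was -0.02 in WT against 0.09 in BDNF het-Met mice. Spink8 thus stood apart from the rest of both CA1 lists, among which Fibcd1 alone had a p below 0.05 anywhere.

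No further CA2 gene had an uncorrected p below 0.05. Necab2, a calcium-binding protein of neurons, had the smallest p for the average, with 0.16 (p of 0.0612 from the limma standard errors). Medians of the further CA2 genes were 0.01 in WT against 0.07 in BDNF het-Met mice. Among the further CA3 genes Coch, which encodes the secreted matrix protein cochlin, had a log2 fold change of -0.27 with an SE of 0.32 in WT mice against -0.75 with an SE of 0.26 in BDNF het-Met mice (uncorrected p of 0.0162, adjusted p of 0.295 by limma). The other 4 further CA3 genes did not reach an uncorrected p of 0.05, and the medians of that list were 0.001 and 0.03. Coch and Bok, both assigned to CA3, thus had opposite signs in BDNF het-Met mice.

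Genes listed for pyramidal neurons in general were measured more precisely. Their median CORT effect was 0.001 in WT against 0.003 in BDNF het-Met mice. Camk2a, the alpha subunit of the calcium/calmodulin-dependent kinase of excitatory synapses, stood at 0.13 with an SE of 0.06 in WT mice (uncorrected p of 0.0471 by limma) and had an average of 0.12 (uncorrected p of 0.0130, adjusted p of 0.264, from the limma standard errors). Neurod6, a transcription factor of pyramidal neurons, stood at -0.07 with an SE of 0.10 in WT against 0.23 with an SE of 0.09 in BDNF het-Met mice (uncorrected p of 0.0239 by limma). The difference of 0.30 for Neurod6 had an uncorrected p of 0.0409 and an adjusted p of 0.9999 from the limma standard errors. Nrgn, the calmodulin-binding protein neurogranin, had a log2 fold change of -0.11 with an SE of 0.05 in BDNF het-Met mice (uncorrected p of 0.0329 by limma). Slc17a7, the vesicular glutamate transporter of these cells, had log2 fold changes of 0.03 and -0.002, with SEs of 0.06 and 0.05.

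Marker genes of other cell types and tissues were read beside the field genes. In BDNF het-Met mice the medians of 5 microglia, 5 astrocyte, 5 oligodendrocyte, 5 thalamus and 6 striatum genes were -0.36, -0.25, -0.34, -0.35 and -0.40, and those of 5 dentate granule cell and 5 blood genes 0.25 and 0.64. In WT mice the same medians were -0.19, -0.03, -0.07, -0.15 and -0.07, and 0.09 and 0.58. All 5 microglia genes (Cx3cr1, Tmem119, P2ry12, Csf1r and Aif1) were lower under CORT in BDNF het-Met mice. Each had an uncorrected p below 0.05 there, as 13.2% of all genes had, and their smallest adjusted p was 0.275 by limma. In WT mice no microglia gene did, the smallest p being 0.0808 by limma. Among the astrocyte genes Aqp4, Gfap and Gja1 were lower and Aldh1l1 higher with an uncorrected p below 0.05 in BDNF het-Met mice. Aqp4 (lower) and Aldh1l1 (higher) had such a p in WT mice too, where 3.83% of all genes had. Averaged over genotypes, Aqp4 stood at -0.65 with an SE of 0.09 and an adjusted p of 0.0431 from the limma standard errors. Like Spink8, it was among the 13 genes to pass for the average. Of the oligodendrocyte genes Mag, and of the thalamus genes Tnnt1 and Tcf7l2, were lower with an uncorrected p below 0.05 in BDNF het-Met mice. Striatum genes had no uncorrected p below 0.05 for CORT in either genotype.

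The 5 dentate granule cell genes were all above 0 in BDNF het-Met mice and none had an uncorrected p below 0.05, Dsp having the smallest for the average (p of 0.138 from the limma standard errors). All 5 blood genes were above 0 in both genotypes. Hba-a2, Hbb-bs and Hbb-bt had an uncorrected p below 0.05 for the average (13.3% of all genes had). The smallest adjusted p of the blood genes for the average was 0.306 from the limma standard errors. The choroid plexus medians were -1.57 (WT) and 0.13 (BDNF het-Met), with no uncorrected p below 0.05, Kcne2 having the smallest for the average (p of 0.468 from the limma standard errors). Ventral pole genes (medians -0.03 and 0.04, Etv1 with the smallest p for the average, 0.0943 from the limma standard errors) and subiculum genes (0.09 and 0.02, Fn1 with 0.522 from the limma standard errors) likewise had none. Of 5 interneuron genes, with medians of 0.07 and 0.05, only Gad1, at 0.12, had an uncorrected p below 0.05 in BDNF het-Met mice (p of 0.0421 by limma). The part of these cell types in the values of Fibcd1, Bok and Pcp4 was not tested.

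**Figure D4:**
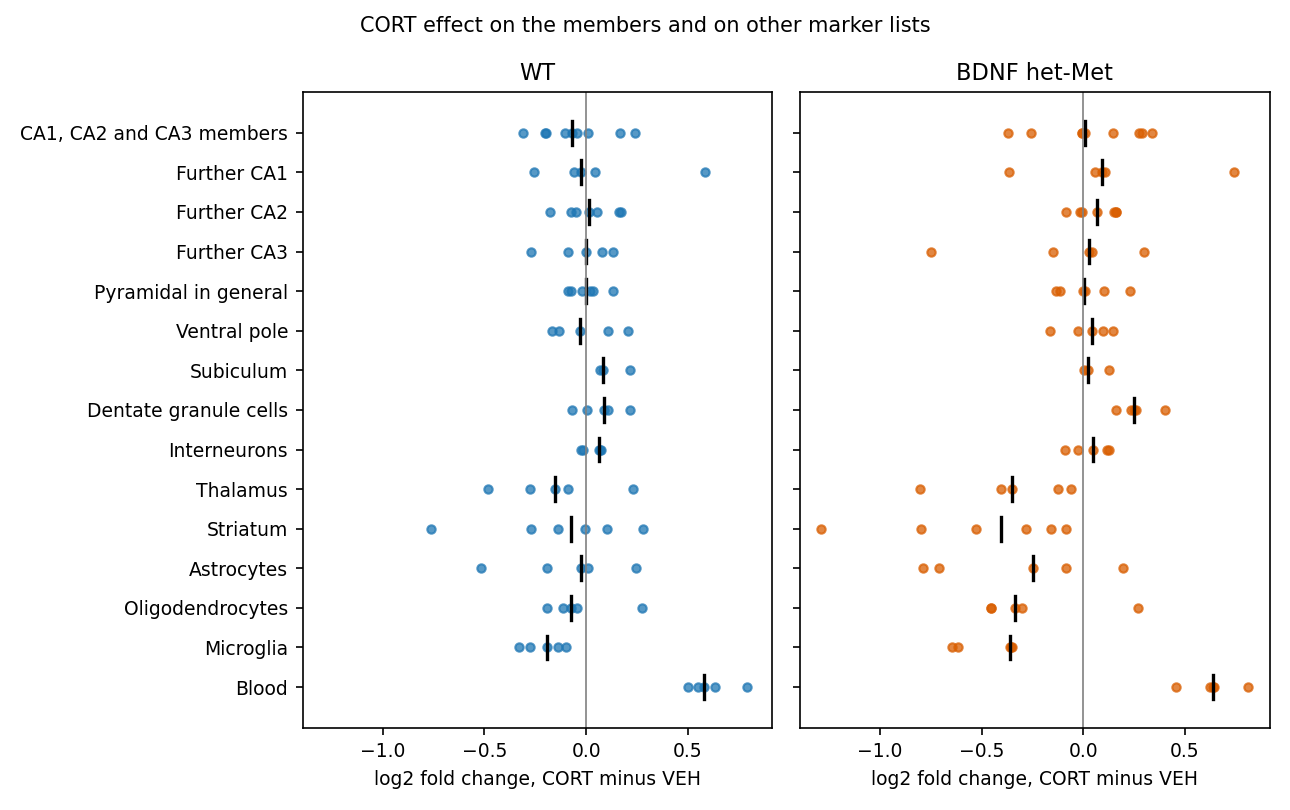
CORT log2 fold change (CORT minus VEH) of each gene of the 9 field genes (top) and of the other marker lists, in WT (left) and BDNF het-Met mice (right), with a vertical bar at the median of each list; choroid plexus genes are left out. The 9 field genes lie on both sides of 0 with medians of -0.07 and 0.01, whereas the blood genes lie above 0 in both genotypes and the microglia genes below.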

How the data were processed

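RNA-seq of the vHPC was represented by 2 tables, 1 per genotype, with the same 17564 genes. The authors aligned reads with STAR to mm10 (GRCm38), assigned them to genes with featureCounts and fitted log2 CPM by limma-voom. Not given in the sources used here were versions, the low-expression filter and whether strand was used. The deposited log2 values are mean expression, fold change and its ordinary SE. The deposited scores are the moderated t and the joint F, and the deposited p-values are uncorrected, Benjamini-Hochberg adjusted or joint. As listed, fold changes are VEH minus CORT, so the sign was turned. The direction rests on the comparison names and on Fkbp5 and Plin4, higher under CORT, while for Tnnt1 and Chn2 the text of the study gives the opposite direction in BDNF het-Met mice.

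The SE printed here is the log2 fold change over the moderated t. Differences and averages of both genotypes were tested two-sided at the listed 10.9 total degrees of freedom, with Benjamini-Hochberg adjustment over all genes. The residual degrees of freedom listed are 7, whereas 12 libraries in 4 groups leave 8, and which libraries entered the fit is not given. All 9 members were named, and from each further list the genes with an uncorrected p below 0.05 in either genotype or for the average, or else the gene of smallest p for the average. Some genes that this rule names are not reported here. The members and lists were chosen with earlier results of these data known. Coordinates and exon lengths came from GENCODE M21 by Ensembl identifier (17551 of 17564 matched), and promoters from RefSeq on GRCm38. Transcripts were compared with blastn 2.17.0 (at least 75 bases at 98% identity). Python 3.11.15, pandas 2.3.3 and scipy 1.17.1 were used, and the code was tested on simulated data.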

Additional observations from a re-analysis of the deposited data

How the results depend on the processing

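The count of members with an uncorrected p below 0.05 in BDNF het-Met mice went from 3 to 0 with the ordinary SE, to 2 at 8 degrees of freedom (Fibcd1 p of 0.0570 from the limma fit) and to 2 once fold changes were centred on the median of the same expression quintile (Fibcd1 p of 0.0790 from the limma fit). For the average over genotypes the count went from 2 to 0 with the ordinary SE and to 1 with centring, where Fibcd1 had a p of 0.0618 from the limma standard errors. The members called in BDNF het-Met mice went from 0 to 3 without a fold minimum. Centring turned the BDNF het-Met effect of Rgs14 to -0.025, which is also the median of the 9 genes there under centring. The other counts and medians kept their side of the threshold or their sign under each alternative run. Among the effects of single members in each genotype, on average and in difference, 35 kept sign and side at 8 degrees of freedom, 33 with centring and 31 with the ordinary SE. No paired analysis was possible because the tables give no values per library, although replicate numbers are shared between groups in the labels. For the same reason no replicate could be left out. What depth limits is unknown, since counts per library were not analysed here.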

Other observations

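The statistic left for the contrast between genotypes, which has no sign and no p, had a median of 0.43 over all genes. Its highest value among the members and listed genes was 8.91, for Nr3c2, the mineralocorticoid receptor gene on the further CA2 list (above 99.2% of all genes). The authors' log2 fold changes for Nr3c2 under CORT were -0.08 with an SE of 0.10 in WT against -0.01 with an SE of 0.09 in BDNF het-Met mice. Next was Neurod6, of the list of pyramidal genes in general, with 7.90 (above 98.9%). Both genes are named here for the size of this value, so it was not tested as a genotype effect. Across all genes the median ratio of the SE in WT mice to that in BDNF het-Met mice was 1.12, with a 5th percentile of 1.08 and a 95th percentile of 1.19. A fit with 2 against 3 libraries in 1 genotype and 3 against 3 in the other would give 1.12, and whether the fit was such was not tested.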
